A study of Mus musculus with 18 samples.

Results

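The clustered protocadherin genes lie in 3 neighbouring arrays on mouse chromosome 18, the alpha, beta and gamma clusters. They were taken by name, as every gene whose symbol is Pcdha, Pcdhb or Pcdhg followed by a number, or by a, b or c and a number. Of the 55487 genes counted, 58 met this rule, with 14 in the alpha, 22 in the beta and 22 in the gamma cluster. On the mm10 build of chromosome 18 the alpha genes spanned positions 36930184 to 37187661, the beta genes 37264938 to 37524479 and the gamma genes 37661793 to 37841873. A count of 10 or more in at least 3 libraries was reached by 44 of the 58 genes, and the same 44 entered the tests. These were 1 alpha gene (Pcdhac2), 21 beta genes and all 22 gamma genes. Reads in the constant exons that the alpha genes share with each other, and the gamma genes with each other, belong to several genes and were not counted, so each value stands for the exons a gene has to itself.

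The libraries hold RNA of mouse forelimb buds taken on embryonic days 9.5 (E9.5), E10.5 or E11.5. Mutants carried 2 loxP-flanked Esco2 alleles and the Prrx1-Cre transgene (Esco2fl/fl;Prrx1-CreTg/0), whose promoter is active mainly in limb mesenchyme, so other cells of the bud keep largely intact alleles. Controls carried the same alleles without Cre (Esco2fl/fl), so Cre itself and loss of Esco2 cannot be told apart. Each of the 6 groups had 3 libraries. The labels speak of individual limb buds and do not say that libraries came from separate embryos or litters. The sample descriptions start with a number that 10 of the 18 libraries share with another library of their stage, and the labels do not say what it marks. The p-values therefore reflect the spread among the sequenced libraries and no more, and that spread may be partly technical.

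Protocadherins of the clusters are cadherin-like adhesion proteins of the cell surface. In neurons each cell switches on a small set of the alternative first exons, and the proteins on 2 touching membranes bind when their sets match, which lets a neuron tell its own branches from those of others. A variable exon starts from its own promoter, and in neurons its choice depends on CTCF and cohesin, the ring complex that holds DNA loops and sister chromatids, and on DNA methylation. Esco2 acetylates cohesin during DNA replication. The alpha and gamma genes splice a variable exon to constant exons, while each beta gene is a single exon. The C-type genes (Pcdhac1, Pcdhac2, Pcdhgc3, Pcdhgc4 and Pcdhgc5) stand at the ends of the alpha and gamma arrays and in neurons are less subject to this choice. No sequences are shown for these genes.

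Library totals ran from 35034237 to 56230058 counts, of which the 58 genes took 0.00579 to 0.0361%. A pair of libraries stood apart. Control E9.5 replicate 1 had 22294 genes with a count, against 24125 to 25490 in the other libraries, and mutant E10.5 replicate 3 had 1.96% of its counts in haemoglobin genes. At E10.5 all mutants lay above all controls in this share, at 0.634 to 1.96% in mutants and 0.294 to 0.600% in controls, and likewise in the mitochondrial share of counts, at 0.987 to 1.08% in mutants and 0.531 to 0.758% in controls. Their part in the E10.5 results was not tested. Control E9.5 replicate 1 bears on the results below: it had 1508 Pcdhgc3 counts, against 7601 and 7099 in the other E9.5 controls. Levels are given as CPM, counts scaled to a common library size after TMM normalization. Changes are log2 of mutant over control with the standard error (SE) of edgeR's quasi-likelihood fit to all 18 libraries. The p-values of that quasi-likelihood test were adjusted by the Benjamini-Hochberg method over all 20118 tested genes, and a gene rose or fell where its adjusted p was under 0.05.

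Esco2, the targeted gene, had 15.3, 17.8 and 19.8 CPM in E9.5 mutants, against 25.0, 28.1 and 27.2 CPM in E9.5 controls. At E10.5 it had 21.9, 18.9 and 22.3 CPM in mutants and 29.4, 33.6 and 28.1 CPM in controls. At E11.5 it had 22.5, 23.8 and 22.6 CPM in mutants and 30.9, 20.6 and 30.9 CPM in controls. The groups were apart at E9.5 and E10.5 and overlapped at E11.5. The log2 change was −0.60 ± 0.14 at E9.5 (edgeR adjusted p = 0.162), −0.53 ± 0.14 at E10.5 (edgeR adjusted p = 0.0200) and −0.26 ± 0.14 at E11.5 (edgeR adjusted p = 0.238). These counts sum all exons of the gene in all cells of the bud and do not show the deleted part alone.

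The gamma cluster supplied most of the signal. Over the 18 libraries it had 164867 counts, 91.0% of those of the 58 genes, while the beta cluster had 15681 (8.66%) and the alpha cluster 578 (0.319%). Because genes differ in length, levels were compared between genes as mean CPM per kilobase of countable exon, the exon bases that no other gene on the same strand shares. On this scale Pcdhgc3 stood first, at 38.8 CPM per kb, 9.82 times the next gamma gene, Pcdhgb6, at 3.95, and Pcdhgb7 followed at 2.46. The highest beta genes were Pcdhb22 at 0.667, Pcdhb17 at 0.521 and Pcdhb20 at 0.417 CPM per kb, so Pcdhgc3 was 58.1 times as high as Pcdhb22 and Pcdhgb6 was 5.92 times as high. In the alpha cluster Pcdhac2 reached 0.150 CPM per kb, Pcdha9 0.0307 and Pcdha12 0.019. Pcdha1 and Pcdhb1 had 0 counts in all 18 libraries, which allows up to 0.00371 CPM (3 counts over the 18 libraries, counting error only).

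**Figure D1:**
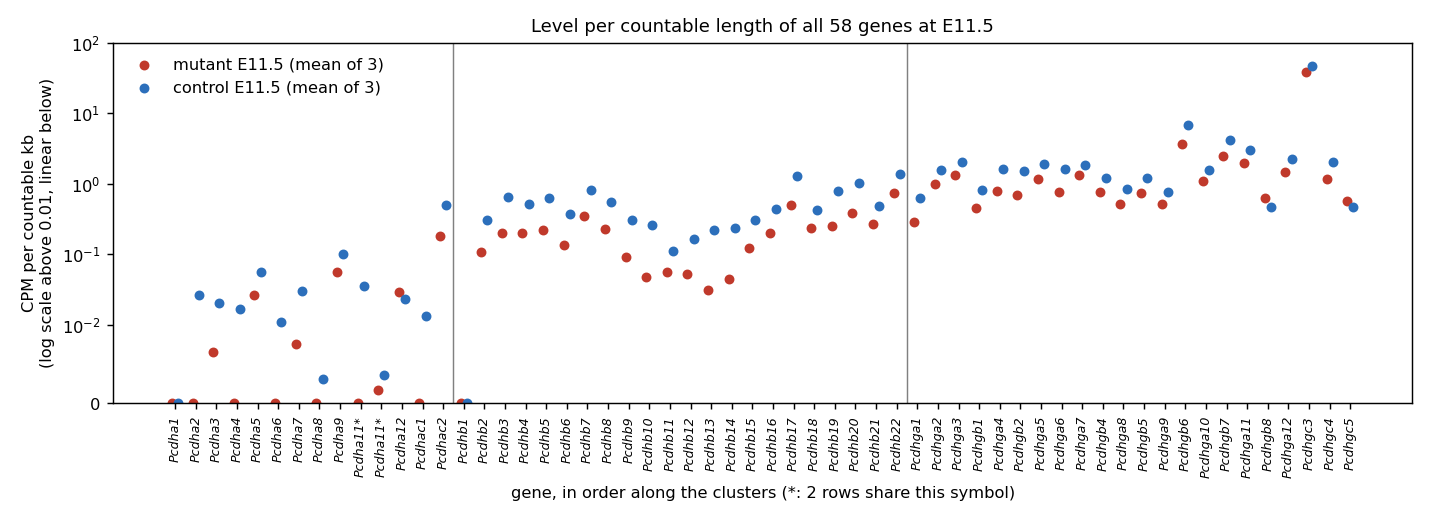
Mean CPM per kilobase of countable exon at E11.5 for each gene of the 3 clusters, mutants left of controls, each point the mean of 3 libraries (log axis above 0.01, linear below). Pcdhgc3 lies above every other gene in both groups.

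Control buds held more clustered protocadherin RNA at later stages, with the widest steps between stages in the alpha and beta clusters. Summed beta CPM in controls was 4.74, 6.01 and 9.92 at E9.5, 22.7, 24.4 and 19.9 at E10.5 and 45.8, 48.1 and 57.6 at E11.5. The stages did not overlap: the E10.5 mean was 3.24 times that of E9.5, and the E11.5 mean 2.26 times that of E10.5. Summed gamma CPM in controls was 64.1, 204 and 214 at E9.5, 246, 246 and 214 at E10.5 and 293, 228 and 287 at E11.5. Its E10.5 mean was 1.47 times that of E9.5, where the low value of control E9.5 replicate 1 enters, and its E11.5 mean was 1.14 times that of E10.5 with overlapping libraries. The alpha sum at E11.5 was 3.49 times that at E10.5.

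Gene by gene, 17 of the 44 tested genes rose in E10.5 against E9.5 controls, against 15.0% of all genes tested, and none fell, against 12.5%. They were 12 beta genes, Pcdhga6, Pcdhgb4, Pcdhgb6, Pcdhgc4 and Pcdhac2, and the median change was 1.76 over the beta and 0.56 over the gamma genes. Another 8 rises and no fall followed in E11.5 against E10.5 controls, where 6.6% of all genes rose and 2.89% fell, in Pcdhb4, Pcdhb12, Pcdhb14, Pcdhb16, Pcdhb17, Pcdhb20, Pcdhga6 and Pcdhac2. Pcdhb12 had 16, 20 and 24 counts in E11.5 controls, against 3, 5 and 2 counts in E10.5 controls. It entered the tests only through those E11.5 controls, which favours a rise, so nothing rests on its call. The medians of that step were 1.26 over the beta and 0.38 over the gamma genes. Pcdhb17 rose in both steps, by 1.57 ± 0.27 (edgeR adjusted p = 0.000462) and then by 1.22 ± 0.26 (edgeR adjusted p = 0.00701), and Pcdhb16 by 2.00 ± 0.33 (edgeR adjusted p = 0.000345) and 1.14 ± 0.30 (edgeR adjusted p = 0.0244). Pcdhga6 rose by 0.77 ± 0.23 (edgeR adjusted p = 0.0214) and by 0.86 ± 0.23 (edgeR adjusted p = 0.0246). Pcdhgc4 rose in the first step, by 1.00 ± 0.16 (edgeR adjusted p = 0.000305), and its second change was 0.09 ± 0.16 (edgeR adjusted p = 0.81). Pcdhac2 had 0, 2 and 1 counts in the E9.5 controls and rose in both steps, by 3.99 ± 0.78 (edgeR adjusted p = 0.00124) and 2.02 ± 0.55 (edgeR adjusted p = 0.0281). Of the 39 genes that reached the count minimum in mutant libraries too, 16 rose in the first step and 7 in the second. The count for the second step was 13 without control E9.5 replicate 1 (10.2% of all genes). It was 0 without control E11.5 replicate 3 (2.64% of all genes), 1 to 3 without any other control library of E10.5 or E11.5, and the count for the first step was 10 without control E10.5 replicate 2 (10.2% of all genes).

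In mutant buds the beta sum was below that of controls at E10.5 and E11.5, with the lower ratio at E11.5. At E9.5 summed beta CPM was 6.73, 7.74 and 2.63 in mutants and 4.74, 6.01 and 9.92 in controls, with overlapping libraries and a ratio of means of 0.828. At E10.5 it was 16.3, 13.3 and 11.8 in mutants and 22.7, 24.4 and 19.9 in controls. At E11.5 it was 24.0, 20.2 and 16.5 in mutants and 45.8, 48.1 and 57.6 in controls. Mutants and controls were apart at E10.5 and E11.5. The means ± SD at E10.5 were 13.8 ± 2.27 CPM in mutants and 22.3 ± 2.28 CPM in controls (n = 3 each, ratio 0.619), and at E11.5 20.2 ± 3.74 CPM in mutants and 50.5 ± 6.26 CPM in controls (n = 3 each, ratio 0.400). In bulk tissue, fewer cells with these RNAs and less of the RNA per cell cannot be told apart.

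The gamma sum was also lower in mutants at E10.5 and E11.5, with a smaller relative reduction than the beta sum. It was 171, 223 and 192 CPM in E9.5 mutants and 64.1, 204 and 214 CPM in E9.5 controls. At E10.5 it was 169, 153 and 159 CPM in mutants and 246, 246 and 214 CPM in controls, and at E11.5 it was 182, 210.2 and 208 CPM in mutants and 293, 228 and 287 CPM in controls. The groups overlapped at E9.5 and were apart at both later stages, with ratios of means of 1.22, 0.679 and 0.743. Without control E9.5 replicate 1 the E9.5 log2 ratio was −0.10 in place of 0.28. With Pcdhgc3 left out, the sum was 72.0, 70.6 and 63.0 CPM in E11.5 mutants and 113, 102 and 117 CPM in E11.5 controls. The ratios of means were then 1.06 at E9.5, 0.633 at E10.5 and 0.618 at E11.5.

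The alpha sum was low throughout. At E10.5 it was 0.440, 0.347 and 0.513 CPM in mutants and 0.451, 0.643 and 0.897 CPM in controls, which overlapped. At E11.5 it was 1.10, 0.520 and 0.979 CPM in mutants and 1.64, 2.03 and 3.28 CPM in controls, apart from each other with a ratio of means of 0.373. No test was made on the sums.

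**Figure D2:**
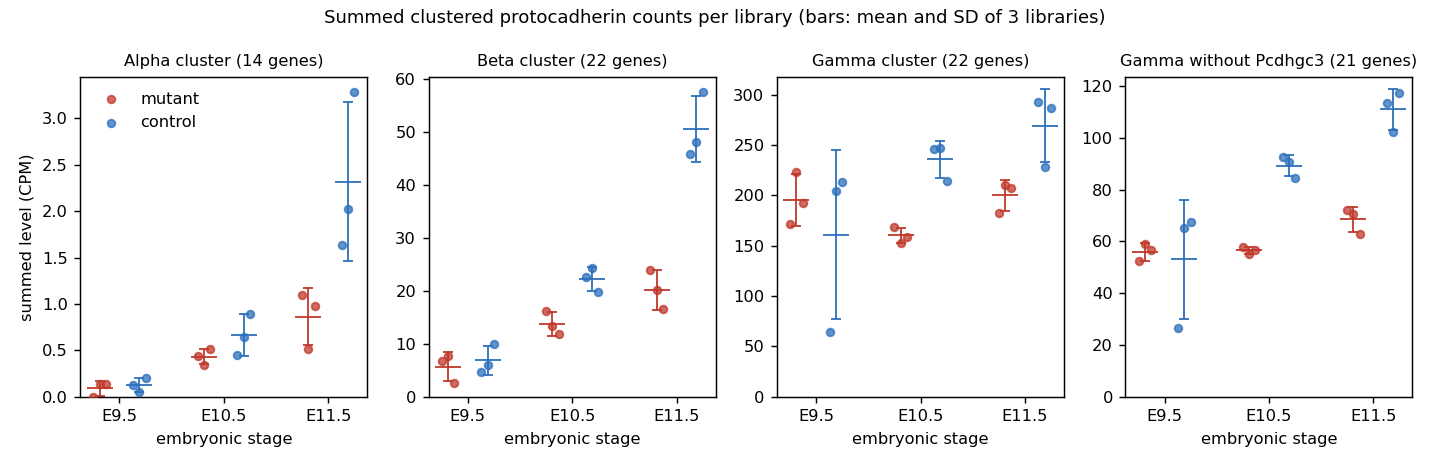
Summed CPM of the alpha, beta and gamma clusters in each library by stage, mutants left of controls, with the mean of 3 libraries. The beta sums separate at E10.5 (mean 13.8 in mutants and 22.3 in controls) and further at E11.5 (20.2 in mutants and 50.5 in controls).

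Counted over all 58 genes, the mean CPM was lower in mutants for 30 genes at E9.5, 50 at E10.5 and 53 at E11.5, and higher for 20, 4 and 3 genes, with the remaining 8, 4 and 2 at 0 in both groups. All 3 mutant libraries lay below all 3 control libraries for 0 genes at E9.5, 25 at E10.5 and 42 at E11.5. Of the 44 tested genes this held for 0 at E9.5, 25 at E10.5 and 39 at E11.5. Over all genes tested the share lying apart in that direction was 3.61% at E9.5, 23.1% at E10.5 and 20.7% at E11.5. Among the 44 tested genes the median log2 change was −0.08 at E9.5, −0.66 at E10.5 and −1.02 at E11.5, beside −0.01, 0.02 and 0.01 over all genes. All 44 reached the count minimum in control libraries and 39 of them in mutant libraries. Pcdhb9, Pcdhb10, Pcdhb11, Pcdhb12 and Pcdhb13 reached it only through the controls, where they were higher, and are among the 44 for that reason. Over the other 39 genes the medians were −0.07, −0.64 and −0.89, and 37 of them had a lower mean in mutants at E11.5 and 35 lay apart. From the authors' deposited table of log2 FPKM, which lists 38 of the genes, the mean was lower in mutants for 22, 38 and 37 of them over the stages. The 3 comparisons use different libraries and share the estimate of the spread.

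**Figure D3:**
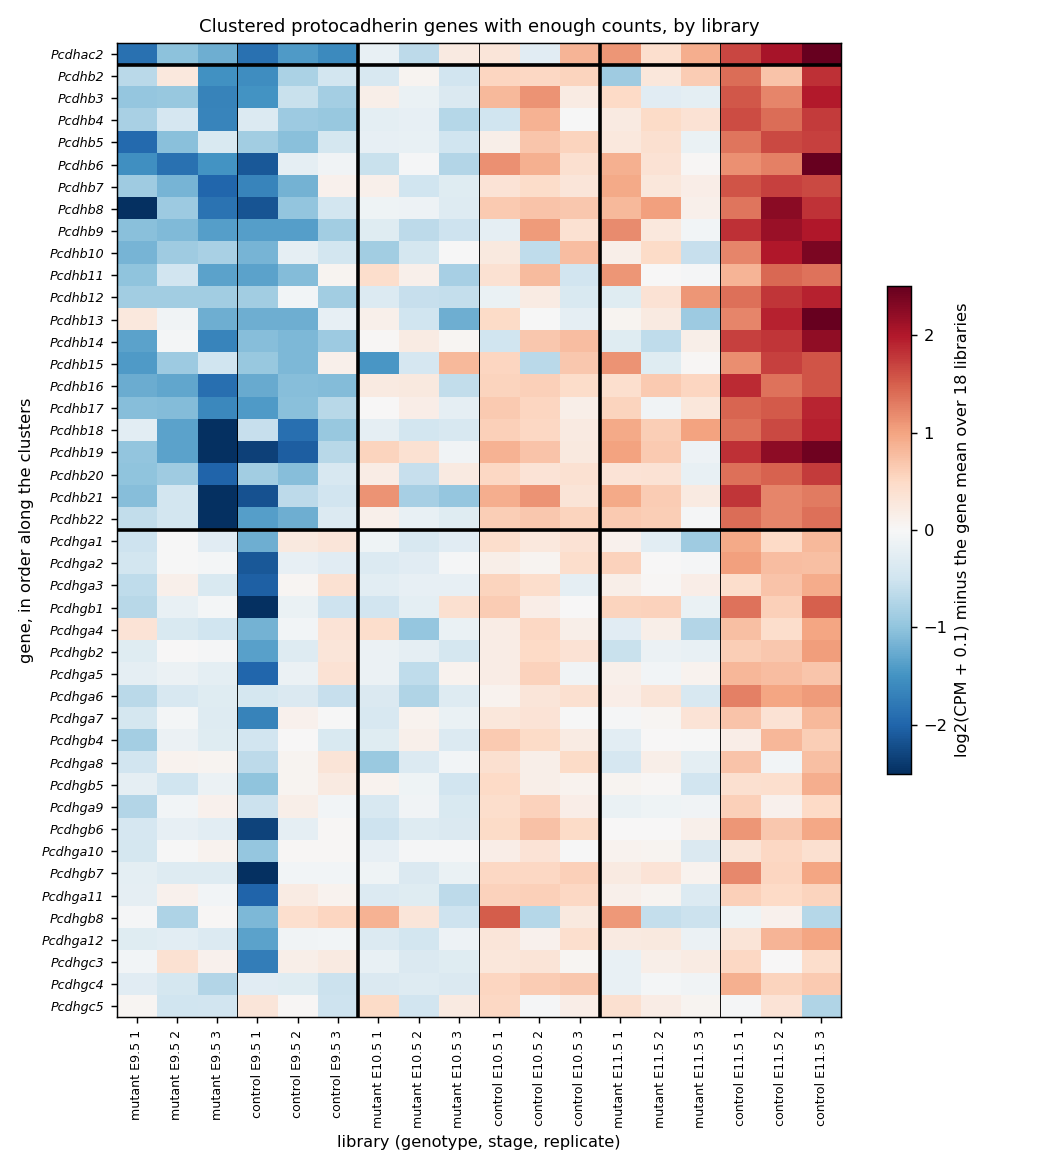
Level of each tested gene in every library as log2(CPM + 0.1) minus the mean of the gene, with mutants left of controls in each stage and colours limited to 2.5 either way. For 20 of the 21 tested beta genes every E11.5 mutant lies below every E11.5 control, as for 20.7% of all genes tested. Among the 20 are Pcdhb9, Pcdhb10, Pcdhb12 and Pcdhb13, which were tested only through the controls, so lower mutants were favoured. Of the 39 genes of the 3 clusters that reached the count minimum in mutants too, 35 lie apart in this way.

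At E9.5 none of the 44 genes rose or fell by edgeR's quasi-likelihood test, and 0.184% of all genes did. DESeq2 and limma also called 0 of the genes. A single gene, Pcdhb6, had an unadjusted p under 0.05, against 9.92% of all genes: 0.0512, 0.0199 and 0.0554 CPM in mutants and 0, 0.275 and 0.309 CPM in controls, a log2 change of −2.23 ± 0.89 (edgeR unadjusted p = 0.0230, adjusted p = 0.497). One control lay below all mutants, so the groups overlapped. The largest fitted rise was 1.47 ± 1.23 in Pcdhb13, tested only through the controls. At the other end, Pcdhb12 had 0 counts in the 3 mutants and in 2 controls and 4 counts in the remaining control.

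At E10.5, 2 of the 44 genes fell and none rose, both from the gamma cluster. Over all genes 6.63% fell and 7.3% rose. The change had a negative sign in 44 of 44 genes, with medians of −0.79 over the beta and −0.57 over the gamma genes, and 12 had an unadjusted p under 0.05 (28.0% of all genes). Without Pcdhb9 to Pcdhb13, tested only through the controls, all 39 genes were still lower, and the median over 16 beta genes was −0.72. Pcdhgc4, a C-type gamma gene whose loss in mice causes death of spinal interneurons, had 3.36, 3.43 and 3.36 CPM in mutants and 6.33, 6.76 and 6.98 CPM in controls. The mutant libraries lay close together and far below every control. Its log2 change was −0.98 ± 0.16 (edgeR adjusted p = 0.000748), a fold of 0.506, and it was called in all 18 fits that left out 1 library. Pcdhga6, an A-type gamma gene, had 1.47, 1.11 and 1.52 CPM in mutants and 2.07, 2.39 and 2.59 CPM in controls, again apart. It changed by −0.78 ± 0.23 (edgeR adjusted p = 0.0327), a call that was lost without any 1 of the 6 E10.5 libraries (adjusted p up to 0.142).

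The E10.5 count depended on a library of neither group compared. Without control E9.5 replicate 1, which enters through the shared estimate of the spread, 10 of 45 genes tested fell, and 13.2% of all genes did. They were the 2 above with Pcdhb6, Pcdhga9, Pcdhga11, Pcdhga12, Pcdhgb2, Pcdhgb6, Pcdhgb7 and Pcdhgc3, named after their values were seen. Pcdhgb6 had 6.35, 7.29 and 7.05 CPM in mutants and 12.7, 15.1 and 12.7 CPM in controls at E10.5. Its mutants were far below its controls, yet with all 18 libraries its change of −0.97 ± 0.35 had an edgeR adjusted p of 0.0749, against −0.98 ± 0.14 and an adjusted p of 4.86e-05 without that library. In control E9.5 replicate 1 it had 1.75 CPM, against 7.73 and 9.28 CPM in the other E9.5 controls.

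The most abundant genes showed the same order at E10.5 without passing the test on all 18 libraries. Pcdhgc3 had 111, 97.8 and 102 CPM in mutants and 154, 156 and 129.6 CPM in controls (−0.50 ± 0.32, edgeR adjusted p = 0.331). Pcdhgb7 had 5.17, 4.27 and 4.92 CPM in mutants and 7.97, 8.02 and 8.45 CPM in controls (−0.77 ± 0.47, edgeR adjusted p = 0.305). Pcdhb22 had 3.65, 2.91 and 2.69 CPM in mutants and 5.17, 5.36 and 4.90 CPM in controls (−0.74 ± 0.40, edgeR adjusted p = 0.245). All 3 genes had every mutant below every control. The E10.5 changes ran from −1.61 ± 0.69 for Pcdhb9, tested only through the controls (edgeR adjusted p = 0.137), at 0.110, 0.0651 and 0.0820 CPM in mutants and 0.123, 0.443 and 0.239 CPM in controls, to −0.11 ± 0.32 for Pcdhgc5 (edgeR adjusted p = 0.86).

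**Figure D4:**
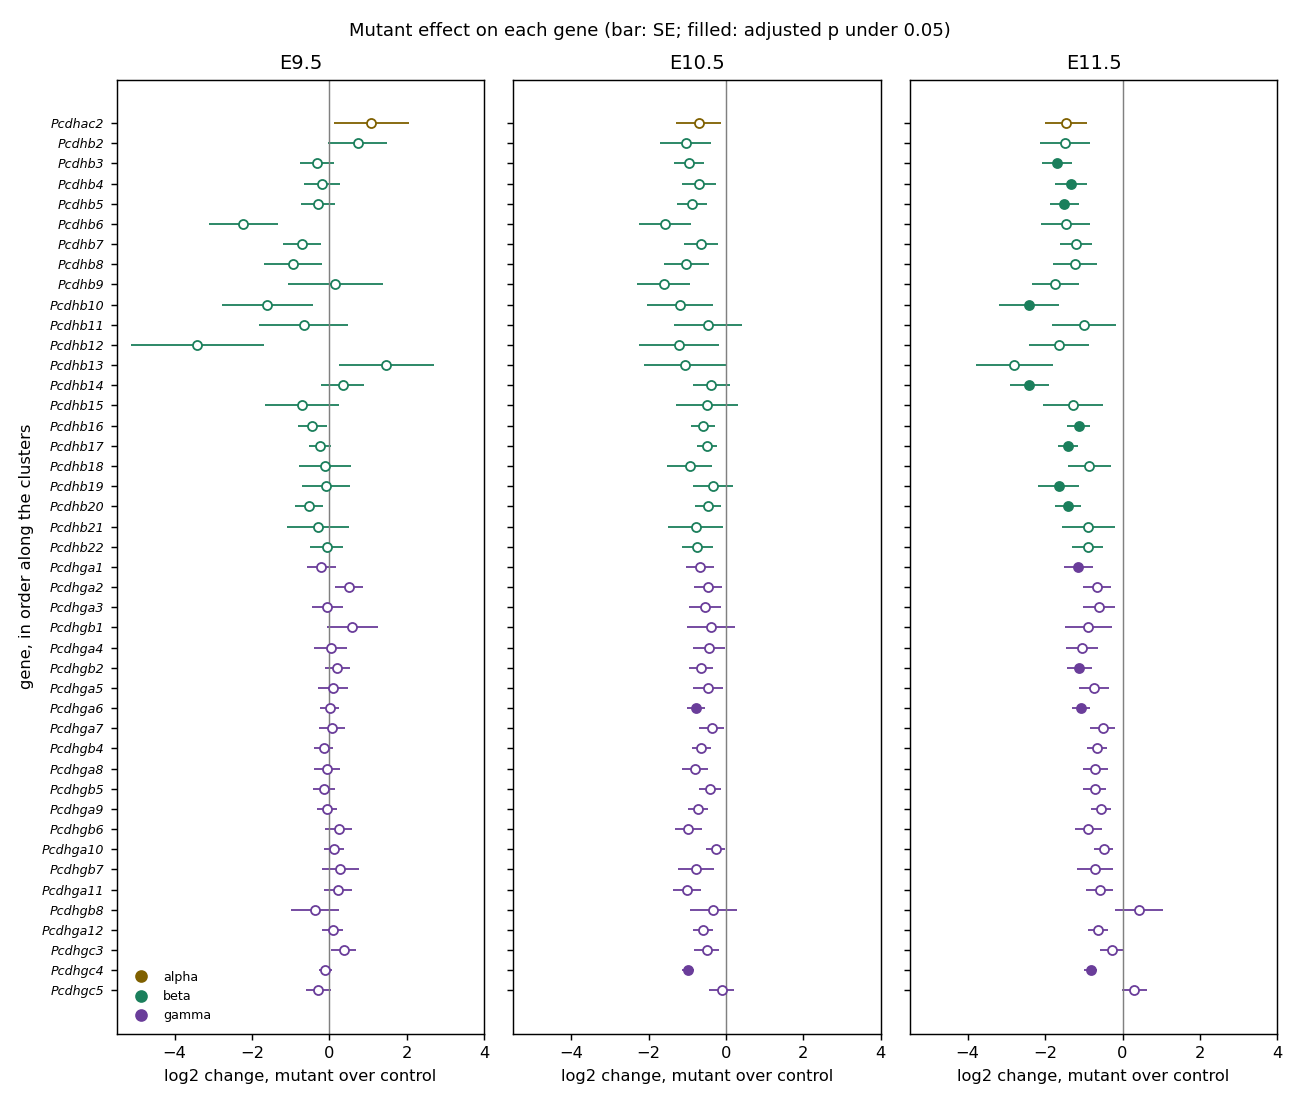
log2 change of mutant over control (points) with its SE (bars) for each tested gene at each stage, by cluster. The beta genes shift furthest from 0 at E11.5 (median −1.41), and Pcdhb12 at E9.5 rests on 4 counts in 1 control library. Pcdhb9 to Pcdhb13 were tested only through the controls, which favours lower mutants. Without them the E11.5 median over 16 beta genes was −1.37.

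At E11.5, 13 of the 44 genes fell and none rose, while 9.52% of all genes fell and 8.02% rose. They were 9 of 21 beta and 4 of 22 gamma genes. The medians were −1.41 over the beta genes (range −2.79 to −0.85) and −0.68 over the gamma genes (range −1.14 to 0.43). Pcdhb9 to Pcdhb13, tested only through the controls, are among these beta genes, which favours falls in the count and the median. Without them 12 of 39 genes were called, 8 of them among 16 beta genes with a median of −1.37 (range −2.40 to −0.85). Without control E9.5 replicate 1, 27 of 45 genes fell (13 beta, 13 gamma and Pcdhac2), against 15.0% of all genes, and all 13 of the first count were among them. Without mutant E11.5 replicate 3 the count was 6 (5.49% of all genes), and without control E11.5 replicate 3 it was 8 (5.94%).

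Among the beta genes, single-exon genes with no constant region of their own, Pcdhb17 had the smallest adjusted p. It had 0.845, 0.834 and 0.554 CPM in E9.5 mutants and 0.649, 0.861 and 1.13 CPM in E9.5 controls. At E10.5 it had 1.89, 2.13 and 1.6 CPM in mutants and 3.01, 2.77 and 2.11 CPM in controls, and at E11.5 2.82, 1.77 and 2.32 CPM in mutants and 5.39, 5.64 and 7.33 CPM in controls. The groups overlapped at both earlier stages and were apart at E11.5, where the change was −1.41 ± 0.26 (edgeR adjusted p = 0.00131), a fold of 0.377. At E10.5 it was −0.49 ± 0.26 (edgeR adjusted p = 0.231).

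Pcdhb14 had 0.128, 0.457 and 0.0832 CPM in E9.5 mutants and 0.175, 0.165 and 0.206 CPM in E9.5 controls. At E10.5 it had 0.484, 0.564 and 0.492 CPM in mutants and 0.308, 0.820 and 0.877 CPM in controls, and at E11.5 0.365, 0.270 and 0.538 CPM in mutants and 1.78, 1.87 and 2.56 CPM in controls. The groups overlapped at E9.5 and E10.5 and were apart at E11.5. The E11.5 change was −2.40 ± 0.49 (edgeR adjusted p = 0.00289), a fold of 0.189, against −0.38 ± 0.48 at E10.5 (edgeR adjusted p = 0.656).

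Pcdhb3 had 1.10, 0.597 and 0.612 CPM in E11.5 mutants and 2.37, 1.87 and 3.26 CPM in E11.5 controls (−1.70 ± 0.38, edgeR adjusted p = 0.00532). Pcdhb20 had 1.53, 1.54 and 1.03 CPM in mutants and 3.23, 3.48 and 4.20 CPM in controls (−1.41 ± 0.33, edgeR adjusted p = 0.00629). Both were called in all 18 fits that left out 1 library, as were Pcdhb14 and Pcdhb17, and in each the lowest control exceeded the highest mutant. Pcdhb5 had 0.828, 0.925 and 0.587 CPM in mutants and 1.87, 2.35 and 2.44 CPM in controls (−1.50 ± 0.38, edgeR adjusted p = 0.0115). Pcdhb16 had 0.950, 1.14 and 1.03 CPM in mutants and 2.74, 1.90 and 2.21 CPM in controls (−1.13 ± 0.30, edgeR adjusted p = 0.0149). Pcdhb4 had 0.682, 0.828 and 0.758 CPM in mutants and 1.97, 1.66 and 2.14 CPM in controls (−1.34 ± 0.42, edgeR adjusted p = 0.0335). For these 3 genes too the libraries of the groups did not overlap, and 17, 15 and 12 of the 18 fits called them.

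The last 2 beta genes past the threshold rested on fewer fits. Pcdhb10 had 6, 11 and 2 counts in E11.5 mutants and 18, 30 and 42 counts in E11.5 controls, a log2 change of −2.42 ± 0.77 (edgeR adjusted p = 0.0383) called in 9 of 18 fits. It reached 10 counts in 4 control libraries and 1 mutant library, so it entered the tests only because controls were high, and nothing rests on its call. Pcdhb19 had 2.44, 1.89 and 1.05 CPM in mutants and 4.36, 5.85 and 6.66 CPM in controls, a change of −1.65 ± 0.53 (edgeR adjusted p = 0.0395) called in 8 of 18. The most abundant beta gene, Pcdhb22, had 5.26, 5.12 and 3.23 CPM in mutants and 8.92, 7.83 and 8.75 CPM in controls. Its groups were apart, and its change of −0.90 ± 0.40 did not pass (edgeR adjusted p = 0.134). Pcdhb13 entered in the same way, with 10 counts in 0 mutant and 4 control libraries. Its change of −2.79 ± 0.99 came from 6, 9 and 1 counts in mutants and 19, 30 and 50 counts in controls (edgeR adjusted p = 0.06). Among the beta genes that also reached the minimum in mutants, the lowest change was that of Pcdhb14.

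Among the gamma genes, Pcdhgc4 had 3.77, 4.20 and 4.06 CPM in E11.5 mutants and 8.08, 6.38 and 6.88 CPM in E11.5 controls. Its change of −0.83 ± 0.16 (edgeR adjusted p = 0.00224), a fold of 0.564, stood beside 3.53, 3.16 and 2.58 CPM in E9.5 mutants and 3.54, 3.50 and 2.96 CPM in E9.5 controls (−0.11 ± 0.17, edgeR adjusted p = 0.791). Over the 3 stages no mutant library exceeded 4.20 CPM, while every control from E10.5 on was above that level. Pcdhga6 had 2.19, 2.45 and 1.44 CPM in E11.5 mutants and 4.73, 3.90 and 4.18 CPM in E11.5 controls (−1.07 ± 0.23, edgeR adjusted p = 0.00381). Both genes were called in all 18 fits. Pcdhgb2, a B-type gene, had 1.58, 2.14 and 2.10 CPM in mutants and 3.70, 3.90 and 5.02 CPM in controls (−1.11 ± 0.31, edgeR adjusted p = 0.0201, 15 of 18 fits). Pcdhga1, named after its values were seen as the remaining call, changed by −1.14 ± 0.37 (edgeR adjusted p = 0.0412, 6 of 18 fits).

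The gamma genes are further divided into A, B and C types by sequence. The E11.5 medians were −0.65 over 12 A-type genes, −0.72 over 7 B-type genes and −0.27 over 3 C-type genes, a description with no test. Pcdhgc3, the most abundant member, had 110.2, 139.5 and 145 CPM in E11.5 mutants and 179.5, 126 and 169.6 CPM in E11.5 controls. One control lay below a pair of mutants, so the groups overlapped, and the change was −0.27 ± 0.32 (edgeR adjusted p = 0.613). Pcdhgc5 had 3.02, 2.58 and 2.37 CPM in mutants and 2.23, 2.92 and 1.32 CPM in controls (0.30 ± 0.32, edgeR adjusted p = 0.566). Pcdhgb8, the other gamma gene with a positive change, had 3.02, 0.867 and 0.905 CPM in mutants and 1.26, 1.48 and 0.795 CPM in controls (0.43 ± 0.62, edgeR adjusted p = 0.678). That sign rested on 1 mutant library, and without it the change was −0.41. Pcdhgb6 had 9.08, 9.19 and 9.91 CPM in mutants and 19.7, 14.5 and 17.8 CPM in controls, with no overlap (−0.89 ± 0.35, edgeR adjusted p = 0.0895). Without control E9.5 replicate 1 its change was −0.89 ± 0.14 (edgeR adjusted p = 8.90e-05).

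The make-up of a cluster was described by the share of its counts that each gene held, with no test. Pcdhgc3 held 65.5 ± 4.65% of gamma counts in E11.5 mutants and 58.5 ± 3.11% in E11.5 controls (SD, n = 3 each), with overlapping libraries. At E10.5 it held 64.6 ± 0.97% in mutants and 62.0 ± 1.41% in controls, and at E9.5 71.2 ± 2.07% in mutants and 65.1 ± 5.53% in controls. At both stages the libraries were apart. The E9.5 difference was 2.90 percentage points without control E9.5 replicate 1. Pcdhb22 held 22.3 ± 2.94% of beta counts in E11.5 mutants and 17.0 ± 2.23% in E11.5 controls, where the lowest mutant (19.6%) was just above the highest control (19.5%). At E10.5 it held 22.3 ± 0.467% in mutants and 23.2 ± 1.37% in controls, and at E9.5 26.0 ± 8.89% in mutants and 25.0 ± 1.87% in controls, with overlapping libraries at both stages. The effective number of beta genes, the number of equally expressed genes that would give the same diversity, was 13.9 ± 0.458 in E11.5 mutants (13.4 to 14.3) and 15.5 ± 0.592 in E11.5 controls (14.9 to 16.0). It was lower in all 3 mutants than in any control. The same held at E10.5, at 12.71 ± 0.202 in mutants and 13.71 ± 0.377 in controls. At E9.5 it was 10.65 ± 0.84 in mutants and 11.89 ± 1.57 in controls, with overlapping libraries. The gamma means over the stages were 4.18, 5.32 and 5.13 in mutants and 5.21, 5.703 and 6.39 in controls, apart only at E9.5. With Pcdhgc3 left out they were higher in mutants (17.71, 18.03 and 17.33) than in controls (17.45, 17.04 and 16.93), with overlapping libraries.

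In the alpha cluster only Pcdhac2, a C-type gene with a role in serotonergic axon tiling in mice, could be tested. It had 0, 4 and 2 counts in E9.5 mutants and 0, 2 and 1 counts in E9.5 controls. At E10.5 it had 0.220, 0.130 and 0.328 CPM in mutants and 0.349, 0.199 and 0.558 CPM in controls, and at E11.5 0.682, 0.385 and 0.587 CPM in mutants and 1.05, 1.42 and 2.06 CPM in controls. The E11.5 groups were apart, with a change of −1.46 ± 0.54 that did not pass on all 18 libraries (edgeR adjusted p = 0.0724) and passed without control E9.5 replicate 1 (−1.46 ± 0.50, edgeR adjusted p = 0.0344). Of the remaining alpha genes, Pcdha9 had 7, 5 and 6 counts in E11.5 mutants and 8, 10 and 12 counts in E11.5 controls, or 0.170, 0.0963 and 0.147 CPM in mutants and 0.187, 0.264 and 0.298 CPM in controls. Every mutant lay below every control, as for 4 of the 14 alpha genes, Pcdhac2 among them, and for 20.7% of all genes tested. Apart from Pcdhac2 these alpha genes had at most 12 counts in any library. Pcdha12 had 5, 0 and 4 counts in mutants and 1, 1 and 5 counts in controls, with overlapping libraries. Neither gene was tested.

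Whether the mutant effect differed between stages was tested as an interaction. Between E11.5 and E9.5 it differed for 1 of the 44 genes, Pcdhb14, at −2.75 ± 0.74 (edgeR adjusted p = 0.0372), and 3.61% of all genes had such a negative difference. Leaving out mutant E9.5 replicate 2, which had the highest E9.5 level, gave −1.65, and 10 of 18 fits without 1 library called it. The call ended with the replicate block (edgeR adjusted p = 0.0653), with a gene length trend removed (0.0543) and with only the libraries of both stages (0.0915), and limma called 0 of the clustered genes it could test. The same library had 13.6 CPM of hindlimb markers, against 2.58 and 3.66 CPM in the other E9.5 mutants and 1.42 to 6.07 CPM in E9.5 controls, and the part of this in the difference was not tested. Between E10.5 and E9.5, edgeR called 0 of the 44 genes and 2.22% of all genes in either direction. DESeq2 called 1 and limma 0, and 4 had an unadjusted p under 0.05 in edgeR (22% of all genes). The nearest named gene was Pcdhgc4 at −0.87 ± 0.23 (edgeR adjusted p = 0.0579). Without control E9.5 replicate 1, Pcdhgc4 and Pcdhgb6 passed (2.11% of all genes), at adjusted p = 0.0427 and 0.0402 by edgeR's quasi-likelihood test. Between E11.5 and E10.5 edgeR called 0 of the 44 genes and 0.0746% of all genes, with 2 of the 44 and 8.47% of all genes at an unadjusted p under 0.05, and 0 called by DESeq2 and by limma. A larger distance of the beta sums at E11.5 than at E10.5 is therefore a description, with no gene past the test of that difference.

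Other genes give the setting of these values. Of 25 genes with a part in promoter choice and silencing at the clusters, none changed at E9.5, 4 fell at E10.5 and 1 fell at E11.5, and the medians were 0.15, −0.32 and −0.13. For comparison, 6.63% of all genes fell at E10.5 and 9.52% at E11.5, and the all-gene medians were −0.01, 0.02 and 0.01. At E10.5 Dnmt3a, a DNA methyltransferase, fell by 0.54 (SE 0.13, edgeR adjusted p = 0.0101) and Rad21, a subunit of cohesin, by 0.44 (SE 0.11, edgeR adjusted p = 0.0114), and Esco2 fell as given above. Smc1a, also of cohesin, changed by −0.39 ± 0.12 (edgeR adjusted p = 0.0423, 5 of 18 fits). Rest, a repressor of neuronal genes, changed by −0.26 ± 0.08 at E11.5 (edgeR adjusted p = 0.0427, 2 of 18 fits). Ctcf changed by 0.16, −0.25 and −0.02 over the 3 stages, and Smchd1, a silencing factor that acts on the clusters in mice, by 0.22, −0.44 and −0.06. Neither passed at any stage by edgeR's test (adjusted p of 0.130 or more). Without control E9.5 replicate 1 the E10.5 count was 15 of 25, in a fit where 13.2% of all genes fell. That library had 132.6 CPM of Ctcf, against 212 and 206 CPM in the other E9.5 controls.

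The 12 unclustered protocadherins, which lie outside the arrays as single genes, did not share 1 direction. At E9.5 none changed, at E10.5 4 fell, and at E11.5 7 fell and 1 rose, with medians of 0.33, −0.50 and −1.17. Of all genes tested, 6.63% fell at E10.5, and 9.52% fell and 8.02% rose at E11.5. The all-gene medians were −0.01, 0.02 and 0.01. Pcdh19, linked to an epilepsy in humans, had 42.0 ± 2.47 CPM in E11.5 mutants and 19.5 ± 1.49 CPM in E11.5 controls (SD, n = 3 each), a rise of 1.11 ± 0.12. Pcdh18, expressed in embryonic mesenchyme, fell to 115 ± 8.54 CPM in E11.5 mutants, against 249 ± 13.0 CPM in E11.5 controls. Pcdh10 fell to 27.7 ± 9.52 CPM in E11.5 mutants, against 81.1 ± 22.9 CPM in E11.5 controls. Pcdh8, a protocadherin of the paraxial mesoderm, changed by −2.35 ± 0.28 at E10.5 and −2.64 ± 0.28 at E11.5. At E11.5 Pcdh15, Pcdh9, Pcdh11x and Pcdh20 also fell, by log2 changes of −3.56 ± 0.79, −1.55 ± 0.37, −1.23 ± 0.39 and −1.45 ± 0.46, and Pcdh20 also at E10.5, by −1.92 ± 0.54. By the interaction test the mutant effect differed between E11.5 and E9.5 upwards for Pcdh19 (0.99 ± 0.16, edgeR adjusted p = 0.00284) and downwards for Pcdh8, Pcdh9, Pcdh10 and Pcdh18.

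**Figure D5:**
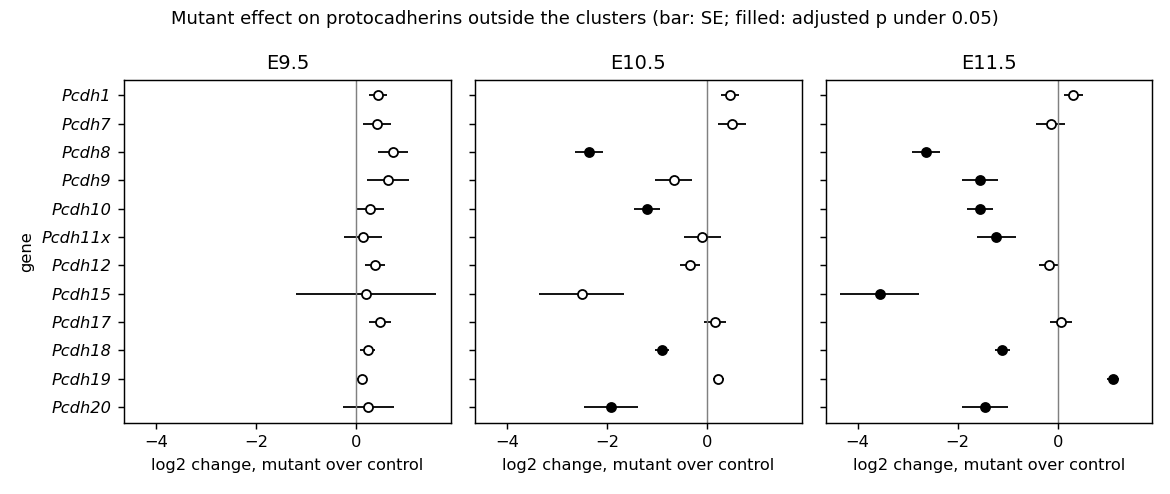
log2 change of mutant over control (points) with its SE (bars) for the 12 unclustered protocadherins at each stage. Pcdh19 is the 1 gene that rose, at E11.5 (1.11), and Pcdh8 fell at both later stages (−2.35 and −2.64).

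Few of the 16 genes for signalling and processing partners of protocadherins moved, with medians of 0.12, −0.19 and −0.08. Cyfip2, a subunit of the WAVE complex that drives actin branching, fell at E11.5 to 25.2 CPM in mutants, against 57.9 CPM in controls (−1.20 ± 0.23, edgeR adjusted p = 0.00181). At E10.5 Ptk2b, a kinase that clustered protocadherins inhibit, rose by 1.52 ± 0.48 (edgeR adjusted p = 0.0414, 6 of 18 fits) and its relative Ptk2 changed by −0.33 ± 0.11 (edgeR adjusted p = 0.0491, 3 of 18 fits). At E9.5 none passed. Among all genes 7.3% rose and 6.63% fell at E10.5, and 8.02% rose and 9.52% fell at E11.5.

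Marker genes of the cell types of the bud moved at the same stages. As a yardstick, 7.3% of all genes rose and 6.63% fell at E10.5, and 8.02% rose and 9.52% fell at E11.5. Taken gene by gene, all mutants lay above all controls for 23.0% of genes at E10.5 and 19.8% at E11.5. They lay below for 23.1% at E10.5 and 20.7% at E11.5. Summed over 8 genes, limb mesenchyme markers were at 920 to 1166 CPM in E10.5 mutants and 1761 to 1827 CPM in E10.5 controls, and at 911 to 1217 CPM in E11.5 mutants and 2030 to 2082 CPM in E11.5 controls. The ratios of mutant to control means were 0.894, 0.575 and 0.513 over the stages, and 0, 4 and 5 of 8 markers fell. Neuron markers, of which 7 of 8 were tested, summed to 41.4 to 51.6 CPM in E10.5 mutants and 59.4 to 67.8 CPM in E10.5 controls, with 2 rises (Tubb3 and Isl1) and 1 fall (Dcx). At E11.5 they summed to 44.2 to 49.4 CPM in mutants and 51.3 to 65.3 CPM in controls, with 1 rise (Isl1) and 2 falls (Dcx and Stmn2). The neuron sums did not overlap at either stage, and the ratios of means were 0.724 at E10.5 and 0.820 at E11.5. Schwann cell and neural crest markers stood at 38.2 to 50.2 CPM in E10.5 mutants and 29.1 to 37.4 CPM in E10.5 controls, higher in every mutant, and averaged 71.4 CPM in E11.5 mutants and 77.6 CPM in E11.5 controls. None of these 6 markers was called by edgeR at any stage.

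Markers of other cells were mostly higher in mutants, at stages where 7.3% (E10.5) and 8.02% (E11.5) of all genes rose. Surface ectoderm markers averaged 721 CPM in E10.5 mutants and 319 CPM in E10.5 controls, and 641 CPM in E11.5 mutants and 325 CPM in E11.5 controls, and all 8 rose at both stages. Macrophage markers averaged 38.6 CPM in E10.5 mutants and 15.7 CPM in E10.5 controls, and 106 CPM in E11.5 mutants and 32.5 CPM in E11.5 controls, with 3 and then 5 of 6 risen. Muscle precursor markers averaged 198 CPM in E10.5 mutants and 117 CPM in E10.5 controls, and 285 CPM in E11.5 mutants and 127 CPM in E11.5 controls, with 1 and then 3 of 6 risen. Erythroid markers stood at 6198 to 19409 CPM in E10.5 mutants and 2873 to 5947 CPM in E10.5 controls, a ratio of means of 2.84 with 5 of 6 risen. At E11.5 they averaged 6171 CPM in mutants and 4269 CPM in controls, with none called. Endothelial markers averaged 378 CPM in E10.5 mutants and 330 CPM in E10.5 controls, where Tie1 and Egfl7 rose, and 299 CPM in both groups at E11.5. The 2 hindlimb markers, a check of the labelled limb, averaged 6.83 CPM in E10.5 mutants and 10.3 CPM in E10.5 controls, and 10.6 CPM in E11.5 mutants and 14.9 CPM in E11.5 controls, and neither was called at any stage. No marker was at 0 in all 18 libraries. The part of these cell types in the lower protocadherin levels was not tested.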

How the data were processed

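RNA sequencing counts of 18 forelimb bud libraries were analysed, grouped by genotype and stage from the labels. Per the submitters' processing notes, cutadapt, STAR, featureCounts and limma were used, and the sources used here give no settings for them beyond the headers. Per the file headers, the deposited counts are whole-number counts per gene from featureCounts 1.6.4, reverse-stranded and paired, over exons of the GENCODE M22 annotation on mm10. Read pairs that overlap several genes or align to several places are left out by default, so near-identical members may be counted low. The authors also deposited log2 FPKM values for 14692 genes (38 of the members), on a normalization the sources used here do not state. Symbols came from the reference annotation by gene identifier (99.8% of 55487 identifiers), and 2 alpha entries share the symbol Pcdha11.

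The counts were tested in R 4.3.3 with edgeR 4.0.16 (filterByExpr, TMM, robust quasi-likelihood fit of 6 groups to all 18 libraries, common biological coefficient of variation 0.231). DESeq2 1.42.0, limma 3.58.1 on the log2 FPKM, other scalings and filters, a replicate block, a block of the number that starts the sample descriptions and leaving out libraries were alternatives, and the pipeline was tested on simulated data. At these depths (35034237 to 56230058 counts) the spread between libraries limits the tests of genes with many counts. Counting error adds to it for genes with few counts, among them many beta genes at E9.5. Pcdhb2 had 1, 6 and 8 counts in E9.5 controls, and the 22 beta genes together had 95 counts in mutant E9.5 replicate 3. How far few counts limited the E9.5 calls was not tested. The genes named were called members by smallest adjusted p, the highest of each cluster per length, the C-type members, the leading control stage changes, the extremes of each comparison, and Ctcf, Rad21, Smchd1, Esco2 and up to 4 called members of each other list and stage. Members, lists and this rule were chosen with earlier results of these data known, so no count here is independent support for a pattern seen before.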

Additional observations from a re-analysis of the deposited data

Results flagged for a closer look

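The mutant effect on Pcdhb14 differed between stages by a test of the difference itself, −2.75 ± 0.74 (log2, SE) for E11.5 against E9.5 (edgeR adjusted p = 0.0372). The mutant over control change was −2.40 ± 0.49 at E11.5, lower in 3 of 3 mutants than in any control, and 0.34 ± 0.55 at E9.5, where the groups overlapped and the highest library was mutant E9.5 replicate 2 at 0.457 CPM. The adjusted p of the difference was 0.00692 by DESeq2, 0.0653 with the replicate number as a block, 0.0543 with a gene length trend removed and 0.0915 with the libraries of both stages alone. It was called in 10 of 18 fits without 1 library, and was −1.65 without mutant E9.5 replicate 2.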

How the results depend on the processing

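Of the alternative counts of clustered protocadherin genes called that did not leave out a single library, 116 stayed within 1.5 times the reported count and 24 did not. Most of the 116 were counts reported as 0 that stayed 0, which says nothing of the counts above 0. Percentages give the share of all genes called in that direction by the same fit. At E10.5 the 2 falls (6.63%) became 13 with only the libraries compared (17.6%), 7 without both libraries that stood apart (9.6%), 5 by DESeq2 (8.5%), 4 with the length trend removed (9.89%), 1 without a filter on low counts (2.98%), and 1 to 10 when 1 library was left out (3.5 to 13.2%). At E11.5 the 13 falls (9.52%) became 24 with only the libraries compared (12.5%), 26 without both libraries that stood apart (15.1%), 8 without a filter (4.44%), 7 by limma on log2 FPKM (10.8%), and 6 to 27 without 1 library (5.49 to 15.0%). The 17 rises of controls from E9.5 to E10.5 (15.0%) became 7 with only the libraries compared (6.3%) and 10 to 20 without 1 library (10.2 to 17.2%). The 8 rises from E10.5 to E11.5 (6.6%) became 18 with only the libraries compared (12.8%), 14 by DESeq2 (9.18%), 13 without both libraries that stood apart (10.4%), 3 by limma (7.24%), 3 without a filter (3.2%) and 0 to 13 without 1 library (2.64 to 10.2%). For the stage differences of the mutant effect, the 0 falls between E10.5 and E9.5 (1.29%) became 1 by DESeq2 and 0 to 2 without 1 library (0.415 to 5.52%). The 1 fall between E11.5 and E9.5 (3.61%) became 5 by DESeq2 and 0 with the length trend removed, by limma or with only the libraries compared. It was 0 to 4 without 1 library (1.4 to 7.28%). Where no percentage is given, a shift cannot be set against all genes. Fewer genes and libraries enter some of these fits, and the cause of the other shifts was not tested.

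Same-numbered mutant and control libraries did not deviate together throughout. The correlations of their deviations were 0.184, 0.119 and 0.0693 at E9.5, all positive. They were 0.0865, 0.0596 and −0.00328 at E10.5, and −0.148, 0.108 and −0.0644 at E11.5. With a replicate block the counts were 1 at E10.5, 12 at E11.5, 17 and 7 for the control stages and 0 for the E11.5 against E9.5 difference. The shares of all genes under this block are not given here, so these counts cannot be set against them. Under the block Pcdhga6 at E10.5 (edgeR adjusted p = 0.0679) and Pcdhb10 (0.0525) and Pcdhb19 (0.0913) at E11.5 missed the threshold. Pcdhac2 at E11.5 passed it (0.0442).

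A block of the number that starts the sample descriptions was added after seeing the data. It compares only libraries that share a number, which are 1 mutant and control pair at E9.5, 4 at E10.5 and 1 at E11.5, with 3 residual degrees of freedom. The deviations of these pairs correlated at −0.128 at E9.5, −0.075 to 0.0865 at E10.5 and 0.260 at E11.5, so they did not deviate together throughout. The falls were then 7 at E10.5 (10.6%) and 8 at E11.5 (7.45%). Signs that turned under it were uncalled: at E9.5 Pcdhac2 (1.09) was −3.82, Pcdhb14 (0.34) −0.36, Pcdhb19 (−0.08) 1.40, Pcdhb20 (−0.52) 0.067, Pcdhb4 (−0.19) 0.13, Pcdhga6 (0.01) −0.33, Pcdhgc3 (0.37) −0.23, Pcdhgc4 (−0.11) 0.014 and Pcdhgc5 (−0.28) 0.018, and Pcdhgb8 at E11.5 (0.43) was −0.48.

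All sums per cluster kept their sign at E10.5 and E11.5 under the alternatives run. At E9.5 the log2 ratio of the beta sum (−0.27) was 0.07 and 0.09 without mutant replicate 3 or control replicate 3. Signs that turned were all in uncalled changes: Pcdhga6 at E9.5 (0.01) was −0.076 with the length trend removed, −0.025 by limma and −0.078 to 0.11 without 1 library. Without both libraries that stood apart, the E9.5 changes of Pcdhb4 (−0.19), Pcdhgb2 (0.21) and Pcdhgc3 (0.37) were 0.10, −0.12 and −0.027. Without 1 library the E9.5 range was −3.94 to 0.00 for Pcdhb12, −0.76 to 0.71 for Pcdhb14, −0.60 to 0.87 for Pcdhb19, −0.62 to 0.16 for Pcdhb4, −0.86 to 0.10 for Pcdhb5, −0.12 to 0.68 for Pcdhgb2, −0.027 to 0.66 for Pcdhgc3 and −0.21 to 0.0048 for Pcdhgc4. It was −0.41 to 0.74 for Pcdhgb8 at E11.5 and −0.32 to 0.13 for Pcdhgc5 at E10.5. The level of Pcdhgc3 per kb was 23.8 with the exon length of the count files, which includes the shared exons, in place of 38.8.

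Leaving out libraries was added for the other lists after seeing the data. The counts below are to be read beside the shares of all genes, which shift with the fit. Without 1 library, 0.0048 to 0.0529% of all genes fell at E9.5. At E10.5 3.5 to 13.2% fell and 3.6 to 12.5% rose, and at E11.5 5.49 to 15.0% fell and 4.82 to 13.8% rose. Promoter choice and silencing had 1 fall at E9.5 with the length trend removed or by DESeq2 (0 to 1 without 1 library), 7 at E10.5 with the length trend removed, 11 without both libraries and 1 to 15 without 1, and at E11.5 0 falls and 2 rises with the length trend removed, 3 falls without both libraries, and 0 to 3 falls and 0 to 1 rises without 1. Unclustered protocadherins had 1 rise at E10.5 and 2 at E11.5 with the length trend removed, and 0 to 2 rises at E10.5 without 1 library. Signalling partners had 2 rises and 3 falls at E10.5 with the length trend removed, 2 and 2 by DESeq2, 0 and 2 without both libraries, and 0 to 2 and 0 to 5 without 1. At E11.5 they had 1 rise with the length trend removed, by DESeq2 or without both libraries, 3 falls without both, and 0 to 1 rises and 1 to 3 falls without 1.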
